A study of Homo sapiens with 4 samples.

Results

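The aminoacyl-tRNA synthetases were followed by RNA sequencing in an established human diffuse large B-cell lymphoma line, SU-DHL-2. The members were taken from the gene symbols of the count table: every symbol made of an amino acid letter and ARS, with or without a final 1 or 2, together with EPRS1, FARSA, FARSB and the scaffold genes AIMP1 and AIMP2. This gave 39 of the 61267 genes in the table, namely 20 cytosolic synthetase genes, 17 mitochondrial synthetase genes (symbols ending in 2) and the 2 scaffold genes. The labels give the genotype as WT. Cells received solvent (vehicle, 2 libraries) or Spautin-1 at 10 µM for 36 h (2 libraries), in medium with serum and antibiotics shared by all cultures. Spautin-1 is known for blocking USP10 and USP13, which remove ubiquitin from proteins, and thereby autophagy. Whether replicates were separate cultures is not stated, so the p-values rest on a spread among 4 libraries that may be no more than technical.

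Each synthetase attaches an amino acid to its transfer RNA, the step that fixes the genetic code before the ribosome reads a message. The cytosolic and mitochondrial sets are both encoded in the nucleus and, for most amino acids, by separate genes; GARS1 and KARS1 supply both compartments from a single gene each. In the cytosol several synthetases sit in a multisynthetase complex held together by the scaffold proteins AIMP1, AIMP2 and EEF1E1. Many cytosolic synthetase genes are known targets of ATF4, the transcription factor of the amino acid and integrated stress responses, and WARS1 is known as an interferon-induced gene.

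The deposited counts summed to between 34115420 and 38362526 per library, and between 25154 and 25683 genes had a read. The B-cell markers MS4A1, PAX5 and CD22 were present at mean vehicle levels of 410.3, 144.8 and 87.9 CPM (reads scaled to a common library size, with TMM factors). The 4 T-cell markers together stood at 0.261 to 0.469 CPM (not TMM-scaled) and the 5 myeloid markers at 0.731 to 1.38. Of 7 B-cell markers 3 (CD22, MS4A1 and POU2AF1) were called higher in Spautin-1; their part in the results below was not tested. None of these marker genes was at 0 in all libraries, and among 4 stromal or epithelial markers EPCAM stood at 48.6 CPM in vehicle. Of the 18368 genes tested across the table, 22.0% were called changed by the edgeR quasi-likelihood test at a Benjamini-Hochberg adjusted p under 0.05, 11.5% higher and 10.5% lower in Spautin-1. In bulk samples, less RNA per cell and fewer cells with the RNA cannot be told apart.

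All 39 members passed the filter on low counts. In vehicle, the cytosolic synthetase mRNAs were the more abundant set. Per kilobase of annotated exon, their mean vehicle levels ran from 4.85 CPM per kb for IARS1 to 151.6 for NARS1, with a median of 19.0. The mitochondrial set ran from 0.410 CPM per kb for PARS2 to 29.2 for IARS2, with a median of 2.77. The sets overlapped at their edges, since IARS2, the mitochondrial isoleucine enzyme, lay above the cytosolic median. These levels divide by all exonic bases of a gene, which reach 22418 for IARS1, so genes with many annotated exons read low.

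AARS1 had the largest increase of the members, MARS1 was called higher with reads it may share with DDIT3 (below), CARS1 and FARSB rose less, and FARSA, NARS1, AIMP2 and the mitochondrial LARS2, CARS2 and EARS2 fell. In all, 4 of 39 members were called higher and 7 lower (edgeR, adjusted over all genes tested), 28.2% of the members beside 22.0% of all tested genes and 30.2% of the protein-coding genes that averaged 5 CPM or more. That share is close to the background, so the number of calls is no result about the members. The median log2 fold change over the members was 0.02, and over all tested genes -0.01. In 12 members both Spautin-1 libraries lay above both vehicle libraries and in 11 they lay below, 30.8% and 28.2% beside 30.8% and 30.6% of all tested genes. With 2 libraries a group, the exact permutation test has a smallest p of 0.333, so single genes were judged by the fit across all genes. The numbers of calls moved when a library was left out, both among the members and among all tested genes (ranges below). The vehicle libraries differed more from each other than the Spautin-1 libraries did, with a mean chi-square per gene of 24.8 against 7.77. Scaling by library size alone gave 2 members higher and 7 lower.

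**Figure D1:**
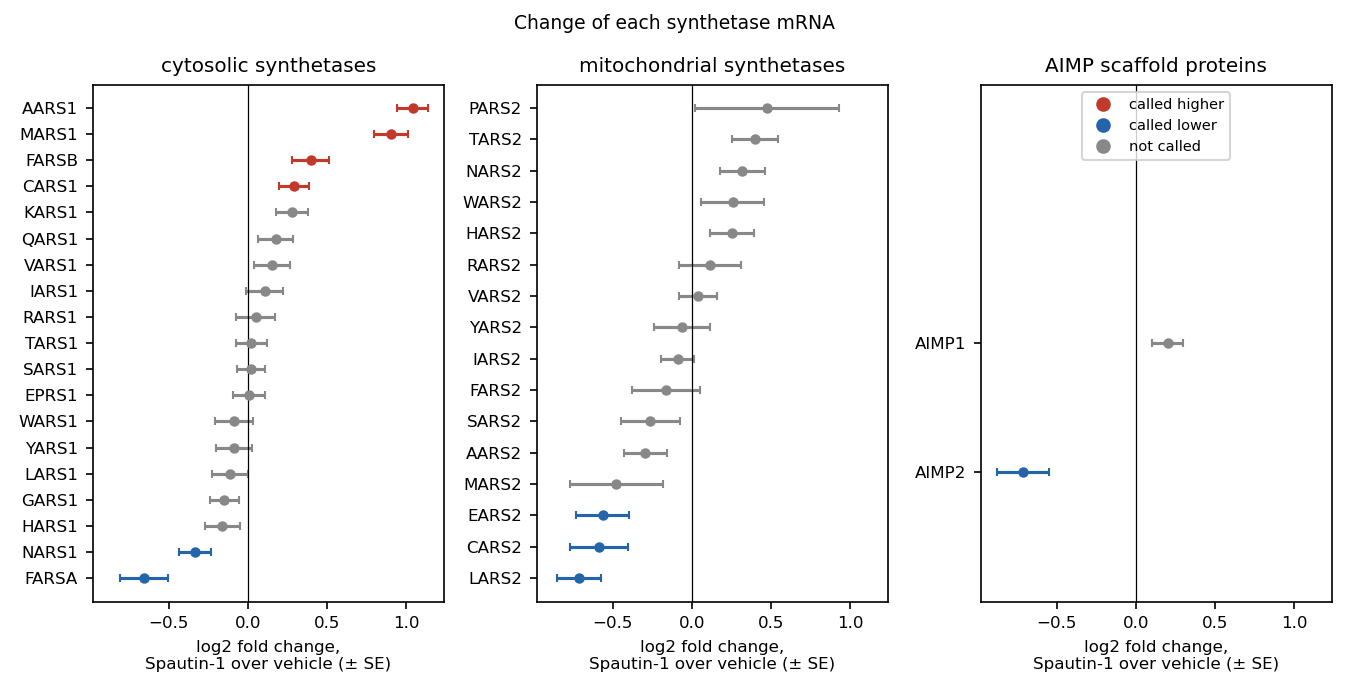
Log2 fold change, Spautin-1 over vehicle, for 37 of the 39 members (points, with bars of 1 standard error from the edgeR fit), in panels for 19 cytosolic and 16 mitochondrial synthetases and the 2 scaffold genes. Red and blue mark genes called higher and lower: AARS1 at 1.04 is the highest of all and LARS2 at -0.71 the lowest, and no mitochondrial gene is called higher.

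AARS1 (chromosome 16, 70251983 to 70289707, GRCh38), the alanine enzyme, stood at 210.7 and 194.8 CPM in the vehicle libraries and at 409.1 and 425.5 CPM in the Spautin-1 libraries. The groups were far apart compared with the spread inside each. Its level rose 2.06-fold (1.04 ± 0.10 on the log2 scale, ± standard error; edgeR adjusted p = 2.4e-05). It shares 0.42% of its exonic bases with a neighbour, DDX19B, on the opposite strand. AARS1 kept its call under all 14 alternatives fixed for the analysis.

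CARS1 (chromosome 11, 3000922 to 3057613), the cysteine enzyme, stood at 303.5 and 282.0 CPM in vehicle and at 347.1 and 370.2 CPM in Spautin-1. It rose 1.23-fold (edgeR adjusted p = 0.0469), close to the threshold. The call was lost without Spautin-1 replicate 1 (adjusted p = 0.205) or replicate 2 (0.378), with DESeq2 (0.0647), with scaling by library size alone (0.0862) and with an offset for gene length (0.0791).

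MARS1 (chromosome 12, 57475445 to 57517569), the methionine enzyme, was counted at 123.0 and 110.5 CPM in vehicle and at 209.7 and 226.5 CPM in Spautin-1, 1.87-fold higher (log2 fold change 0.90 ± 0.11, edgeR adjusted p = 0.000149). Its exons share 355 bases with DDIT3, the gene of the stress factor CHOP, which is read from the opposite strand. Those bases are 5.05% of the MARS1 exons and 27.2% of the DDIT3 exons. DDIT3 itself was at 666 and 833 reads in vehicle and at 4262 and 4351 reads in Spautin-1. MARS1 was at 4271 and 4269 reads in vehicle and at 7867 and 7848 in Spautin-1. On average MARS1 gained 3587.5 reads and DDIT3 gained 3557.

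With the DDIT3 reads of each library taken off, MARS1 was left with 3605 and 3436 reads in vehicle and with 3605 and 3497 in Spautin-1. The libraries then overlapped, and the log2 fold change fell to 0.03 (edgeR adjusted p = 0.878). This is the extreme case, in which every DDIT3 read was also counted for MARS1. With only 27.2% of the DDIT3 reads taken off, the share of its exonic bases that overlap, MARS1 was left with 4090 and 4042 reads in vehicle and with 6708 and 6665 in Spautin-1. The groups then stayed apart, at a log2 fold change of 0.74 (edgeR adjusted p = 0.000641). Both subtractions were chosen after the overlap was seen, and how many DDIT3 reads were also counted for MARS1 is not known. The labels name a stranded library kit, and for the strand setting of the counting the sources used here give nothing. Of 95 genes with at least 100 reads in every library whose exons lie wholly inside those of a gene on the opposite strand, the outer gene had at least as many reads as the inner gene in all 4 libraries for all 95. The same held for all 84 such genes on the same strand. An outer gene can also have more reads because it is longer, so these counts of pairs do not settle the strand setting. With that setting not given, reads of MARS1 and DDIT3 where they overlap cannot be told apart here.

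**Figure D2:**
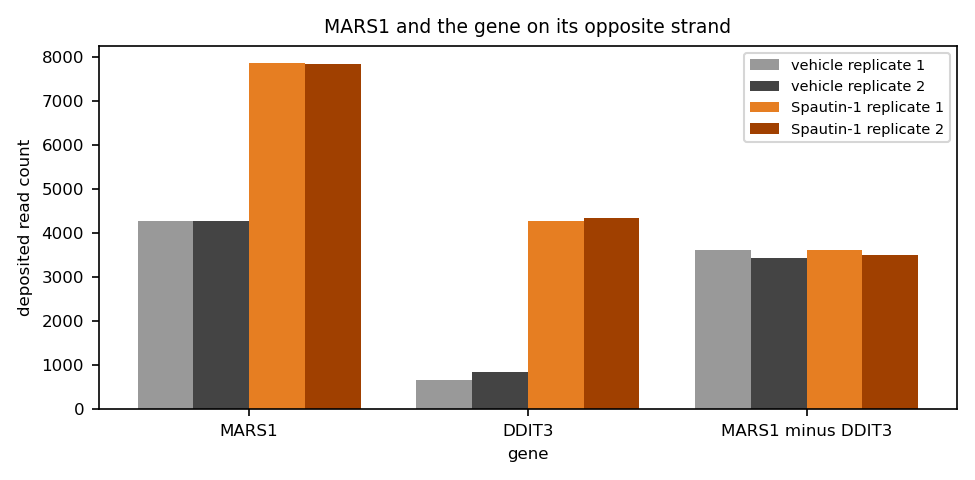
Deposited read counts (vertical axis, from 0) of MARS1, of DDIT3 and of their difference in the 4 libraries, each bar being 1 library. MARS1 and DDIT3 are both higher in the Spautin-1 libraries, while the difference lies between 3436 and 3605 reads in all 4.

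The phenylalanine enzyme is a tetramer of alpha subunits (FARSA) and beta subunits (FARSB), and their mRNAs moved in opposite directions. FARSB (chromosome 2, 222566899 to 222656092) stood at 48.5 and 45.3 CPM in vehicle and at 60.1 and 63.3 CPM in Spautin-1, 1.32-fold higher (edgeR adjusted p = 0.0312). FARSA (chromosome 19, 12922479 to 12934037) stood at 140.1 and 204.7 CPM in vehicle and at 110.8 and 108.2 CPM in Spautin-1. The groups of FARSA did not overlap, but its vehicle libraries differed from each other more than those of any other cytosolic member, by 1.46-fold. FARSA fell 1.57-fold (log2 fold change -0.65 ± 0.15, edgeR adjusted p = 0.00909).

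The size of the fall in FARSA rested on vehicle replicate 2: it was -0.36 on the log2 scale without that library (adjusted p = 0.00147) and -0.90 without vehicle replicate 1. FARSA has the highest transcript GC content of the cytosolic members, 61.9%. With an offset for GC content its log2 fold change was -0.54 (edgeR adjusted p = 0.00186). FARSA kept its call under all 14 fixed alternatives. The part of GC content in the difference between the vehicle libraries was not tested. FARSA-AS1, which shares 25 exonic bases with FARSA, also fell, with group means of 41.7 ± 7.93 and 29.8 ± 0.209 CPM (± SD, n = 2 libraries; edgeR adjusted p = 0.0344). The call of FARSB was lost without Spautin-1 replicate 1 (adjusted p = 0.198) or replicate 2 (0.298) and with scaling by library size (0.0511).

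NARS1 (chromosome 18, 57600656 to 57622213), the asparagine enzyme and the most abundant member per kilobase, stood at 673.2 and 566.9 CPM in vehicle and at 497.2 and 488.6 CPM in Spautin-1. The lower vehicle library lay above both treated libraries. NARS1 fell 1.26-fold (edgeR adjusted p = 0.0336). Its call was lost without Spautin-1 replicate 1 (adjusted p = 0.125) or replicate 2 (0.222), and without vehicle replicate 1 its log2 fold change was -0.20, the same direction at a smaller size.

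The other 14 cytosolic synthetases did not pass the test, with log2 fold changes from -0.16 for HARS1 to 0.28 for KARS1. KARS1, the lysine enzyme of both compartments, stood at 181.5 and 193.7 CPM in vehicle and at 223.5 and 232.0 CPM in Spautin-1 without overlap (0.28 ± 0.10, edgeR adjusted p = 0.0622). It passed without vehicle replicate 1 (0.23, adjusted p = 0.0353), without vehicle replicate 2 (0.33, adjusted p = 0.00284) and with the replicate number as a block (adjusted p = 0.0333). KARS1 shares 176 exonic bases, 4.34% of its own, with TERF2IP on the opposite strand, which rose from 173.2 to 245.4 CPM (edgeR adjusted p = 0.00337). GARS1, the glycine enzyme of both compartments, stood at 395.3 and 410.5 CPM in vehicle and at 356.5 and 370.5 CPM in Spautin-1 (-0.15 ± 0.09, edgeR adjusted p = 0.278). Next to it the divergent transcript GARS1-DT, which shares 312 exonic bases with GARS1, fell, with group means of 150.8 ± 35.8 and 96.2 ± 2.28 CPM (± SD, n = 2 libraries; edgeR adjusted p = 0.00743).

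Among the remaining uncalled cytosolic genes, the vehicle and Spautin-1 libraries did not overlap for QARS1 (glutamine, log2 fold change 0.18), VARS1 (valine, 0.15) and HARS1 (histidine, -0.16). They overlapped for LARS1 (leucine, -0.11), IARS1 (isoleucine, 0.11), YARS1 (tyrosine, -0.09), WARS1 (tryptophan, -0.08), RARS1 (arginine, 0.05), TARS1 (threonine, 0.02), SARS1 (serine, 0.02) and EPRS1 (glutamate and proline, 0.01). Edge cases were LARS1, called lower at -0.27 when vehicle replicate 2 was left out and at 0.06 without vehicle replicate 1, and WARS1, at 0.04 without vehicle replicate 1. Vehicle replicate 1 stood above vehicle replicate 2 for LARS1, at 317.7 against 253.9 CPM. A p that misses the threshold does not show that these levels were equal.

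In the multisynthetase complex the scaffold AIMP2 (chromosome 7, 6009255 to 6023834) was lower after Spautin-1. It stood at 19.98 and 23.3 CPM in vehicle and at 11.8 and 14.7 CPM in Spautin-1, and fell 1.64-fold (log2 fold change -0.71 ± 0.17, edgeR adjusted p = 0.00966). Its Spautin-1 libraries differed by 1.25-fold from each other, and the call was lost without Spautin-1 replicate 1 (-0.57, adjusted p = 0.128). AIMP2 shares 532 bases, 29.1% of its exons, with EIF2AK1 on the opposite strand. EIF2AK1 had 2394 and 2272 reads in vehicle and 2973 and 2532 in Spautin-1 (edgeR adjusted p = 0.161), against 694 and 901 reads for AIMP2 in vehicle.

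AIMP1 (chromosome 4, 106315544 to 106349456), the other scaffold gene among the members, stood at 253.1 and 237.0 CPM in vehicle and at 273.5 and 290.7 CPM in Spautin-1 (0.20 ± 0.10, edgeR adjusted p = 0.16). It passed at adjusted p = 0.0186 without vehicle replicate 1. EEF1E1, the third scaffold gene and no member, gave -0.44 ± 0.15 (edgeR adjusted p = 0.0555), and is named here after its values were seen. Of the 10 members tied to the complex, 1 was called higher (MARS1) and 1 lower (AIMP2), with a median of 0.09; 2 of 10 is near the 22.0% of all tested genes. Of the 12 cytosolic members outside it, 3 were higher (AARS1, CARS1, FARSB) and 2 lower (FARSA, NARS1), with a median of -0.03. That is 41.7% called. Both shares stand beside 22.0% of all tested genes and 38.8% of protein-coding genes that averaged 50 CPM or more. No difference between these shares was tested.

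Among the mitochondrial synthetases 4 of 17 were called lower and none higher by edgeR. That is 23.5%, beside 22.0% of all genes tested called either way, 10.5% lower and 11.5% higher. Of protein-coding genes that averaged 5 CPM or more, 14.1% were called lower and 16.1% higher. DESeq2 and limma-voom also called 0 higher and 4 lower. At an unadjusted p under 0.05, edgeR counted 2 higher (TARS2 and NARS2) and 5 lower, limma-voom 2 and 5, and DESeq2 1 and 4. The share of all tested genes at that threshold is not given, so these unadjusted counts are no result about the members. Leaving out Spautin-1 replicate 1 or replicate 2 left 1 called lower, and without vehicle replicate 1 there were 1 higher and 5 lower. The median of the 17 was -0.09, against 0.04 for the 20 cytosolic members; this difference was not tested.

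LARS2 (chromosome 3, 45388561 to 45554726), the leucine enzyme, stood at 37.2 and 31.6 CPM in vehicle and at 20.8 and 21.1 CPM in Spautin-1. Both treated libraries were well below the vehicle libraries and close to each other. LARS2 fell 1.64-fold (log2 fold change -0.71 ± 0.14, edgeR adjusted p = 0.00365) and was called under all 14 fixed alternatives, at values between -0.83 and -0.59. EARS2 (chromosome 16, 23520754 to 23557731), the glutamate enzyme, stood at 12.7 and 12.5 CPM in vehicle and at 8.37 and 8.69 CPM in Spautin-1, and fell 1.48-fold (edgeR adjusted p = 0.0313). The replicates of EARS2 were close in each group.

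CARS2 (chromosome 13, 110641412 to 110713603), the cysteine enzyme, stood at 16.1 and 23.1 CPM in vehicle and at 13.2 and 12.9 CPM in Spautin-1. It fell 1.501-fold (edgeR adjusted p = 0.0378), and like FARSA it was high in vehicle replicate 2, without which it was at -0.30 on the log2 scale (adjusted p = 0.191). When Spautin-1 replicate 1 or replicate 2 was left out, the calls of CARS2 (adjusted p = 0.101 and 0.177) and EARS2 (0.203 and 0.186) were lost. The folds stayed about as large, at -0.62 and -0.56 on the log2 scale for CARS2 and at -0.55 and -0.58 for EARS2.

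**Figure D3:**
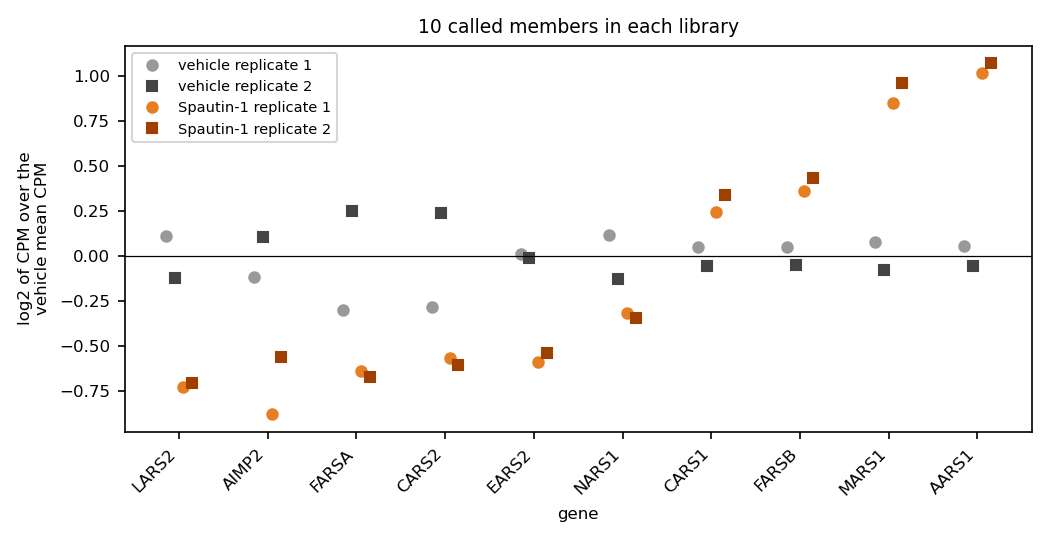
Level of 10 called members in each library, as the log2 of its CPM over the mean vehicle CPM of that gene, with circles for replicate 1 and squares for replicate 2. In each gene both Spautin-1 libraries lie beyond both vehicle libraries, and the vehicle libraries lie farthest apart for FARSA and CARS2, both high in vehicle replicate 2.

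The other 13 mitochondrial synthetases did not pass. TARS2, the threonine enzyme, stood at 20.6 and 18.9 CPM in vehicle and at 24.1 and 28.0 CPM in Spautin-1 (0.40 ± 0.15, edgeR adjusted p = 0.0683). TARS2 passed without vehicle replicate 1 (adjusted p = 0.00589), with the replicate block (0.0447) and with a GC content offset (0.0311). NARS2 (asparagine, log2 fold change 0.32), HARS2 (histidine, 0.25) and WARS2 (tryptophan, 0.26) were higher in both Spautin-1 libraries than in both vehicle libraries without being called. AARS2 (alanine, -0.29) and IARS2 (isoleucine, -0.09) were lower in the same sense, and AARS2 was called without vehicle replicate 1 (adjusted p = 0.0212).

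For the remaining members the groups overlapped: SARS2 (serine, -0.26), MARS2 (methionine, -0.48), PARS2 (proline, 0.47), FARS2 (phenylalanine, -0.16), RARS2 (arginine, 0.12), YARS2 (tyrosine, -0.06) and VARS2 (valine, 0.04). PARS2 rested on 42 and 28 reads in vehicle and 40 and 56 in Spautin-1, which left a standard error of 0.45 on the log2 scale. SARS2 was called lower without vehicle replicate 1 (adjusted p = 0.0187), and it stood at 12.6 CPM in vehicle replicate 1 and 17.4 CPM in vehicle replicate 2. SARS2 and VARS2 share 48.2% and 63.0% of their exonic bases with an overlapping transcript on the same strand, so their reads cannot be told apart from those of that transcript. Without these 2, AIMP2 and MARS1, the members called were 3 higher and 6 lower, against 4 and 7 among all 39. As above, the number of calls is no result about the members.

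Set side by side by amino acid letter, the cytosolic and mitochondrial genes formed 16 pairs, leaving out the members not reported, with FARS2 set against both FARSA and FARSB. The log2 fold changes had opposite signs in 10 pairs and the same sign in 6, but the signs of EPRS1, SARS1 and TARS1 turned with scaling by library size. Those of IARS1, WARS1, YARS1, LARS1, RARS1, RARS2, VARS2 and YARS2 turned in a fit that left a library out. The split of signs is therefore no result about the partners. Only the cysteine pair had both genes called: CARS1 rose by 0.29 and CARS2 was at -0.59. The largest gaps were in the methionine pair (MARS1 0.90, with the DDIT3 overlap given above, MARS2 -0.48) and the alanine pair (AARS1 1.04, AARS2 -0.29). The asparagine pair went the other way, with NARS1 at -0.33 and NARS2 at 0.32. No difference between partners was tested.

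**Figure D4:**
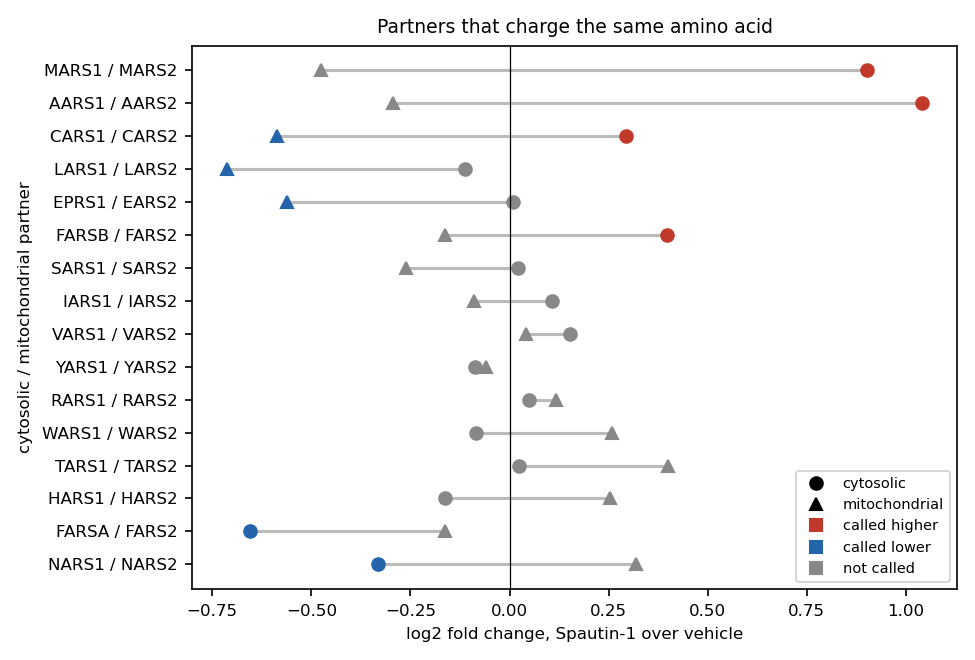
Log2 fold change, Spautin-1 over vehicle, of the cytosolic gene (circle) and the mitochondrial gene (triangle) for each of 16 pairs, joined by a line and ordered by their difference. Colours mark called genes; the cytosolic gene is above the mitochondrial gene in 9 pairs.

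Summed over genes, the change was small in both compartments. The 20 cytosolic mRNAs together stood at 4203 and 3912 CPM in vehicle and at 4254 and 4283 CPM in Spautin-1, and the difference between the group means was smaller than the difference between the vehicle libraries. The 17 mitochondrial mRNAs together stood at 385.9 and 392.8 CPM in vehicle and at 349.2 and 369.8 CPM in Spautin-1. The log2 ratio of the sums was 0.07 for the cytosolic and -0.12 for the mitochondrial members.

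Promoter sequences were read for the letters of the C/EBP-ATF response element, through which ATF4 acts, because AARS1 had the highest fold change of the members. RefSeq (GRCh38.p14) windows of 250 bases before the start site were held for 32 of the 39 members; AARS2, LARS1, VARS1, VARS2 and YARS1 were among those without one. RefSeq start sites can differ from the gene positions of the count table, and the stretches printed for AARS1, IARS1, GARS1, WARS1 and EARS2 lie inside those positions, while that of YARS2 lies outside. The letters TGATGNAA, on either strand, occurred in 4 of the 32 and in 3.14% of 35116 windows of all genes. For this and the other motifs, a member counts once if any of its windows matches, while the share is over single windows. The numbers are thus not like for like. The 30 bases around each match are shown on the strand of the gene, with the match in capitals.
AARS1, chr16:70289675-70289704, minus strand: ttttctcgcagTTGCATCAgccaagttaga
IARS1, chr9:92293698-92293727, minus strand: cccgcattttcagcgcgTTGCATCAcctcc
GARS1, chr7:30594834-30594863, plus strand: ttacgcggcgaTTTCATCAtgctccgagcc
YARS2, chr12:32756076-32756105, minus strand: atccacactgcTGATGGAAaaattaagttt
AARS1 and IARS1 hold the same 8 letters, yet only AARS1 was called: IARS1 stood at 117.7 and 99.9 CPM in vehicle and at 117.3 and 116.8 CPM in Spautin-1. GARS1 and YARS2 were not called either. A match describes the sequence and is no evidence of binding.

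WARS1, as an interferon-induced gene, was read for the interferon-stimulated response element on either strand. It occurred in 3.02% of all windows and, among the members, in WARS1 and in EARS2, whose single site lies in the windows of both of its listed start sites.
WARS1, chr14:100375383-100375412, minus strand: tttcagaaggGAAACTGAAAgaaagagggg
EARS2, chr16:23557554-23557583, minus strand: cctgccacgcTTTCGCTTTCccaagctgaa
WARS1 stood at 98.7 and 83.8 CPM in vehicle and at 82.2 and 89.9 CPM in Spautin-1, with overlap between the groups. In the list of interferon-induced genes, 4 of 25 tested were higher and 5 lower, with a median of -0.10. That is 36.0%, beside 22.0% of all tested genes and 30.2% of protein-coding genes that averaged 5 CPM or more. The antiviral genes MX1 (from 50.3 to 13.7 CPM) and OAS3 (from 11.5 to 3.48 CPM) fell, while GBP2, a guanylate-binding protein (from 2.34 to 7.12 CPM), and STAT2, a transcription factor of interferon signalling (from 5.71 to 10.9 CPM), rose.
The E-box CACGTG was present in AIMP2, EARS2, IARS1 and MARS2 (6.34% of all windows), the STAT site TTCNNNGAA in PARS2, TARS1, WARS1 and WARS2 (6.57%) and the palindromic NRF1 motif in MARS2 (1.03%).

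Of 13 cytosolic synthetases commonly listed as ATF4 targets, 3 rose (AARS1, CARS1 and MARS1, with the overlap given above), 1 fell (NARS1) and 9 did not pass, with a median of 0.02. The share called, 30.8%, is close to the 30.2% of protein-coding genes at 5 CPM or more. Of those at 50 CPM or more, 38.8% were called. For ATF4 itself the vehicle mean was 275.8 ± 17.1 CPM and the Spautin-1 mean 276.0 ± 6.48 CPM (± SD, n = 2 libraries; edgeR adjusted p = 0.995). ASNS, the asparagine synthetase, was at 58.7 ± 6.14 and 60.9 ± 3.11 CPM (edgeR adjusted p = 0.802). Of 30 tested amino acid response genes other than synthetases, 8 rose and 5 fell, with a median of 0.05. That is 43.3%, beside 22.0% of all tested genes and 30.2% of protein-coding genes at 5 CPM or more. PPP1R15A, which reverses eIF2 alpha phosphorylation, had a log2 fold change of 2.87 and DDIT3 of 2.55, while CHAC1, a glutathione-degrading enzyme, was at -1.16 and SLC1A5, a glutamine transporter, at -0.54. A list of 8 genes held the eIF2 kinases, regulators of the kinase GCN2 and the factors EIF2S1 and EIF2A. Of these, 37.5% were called, beside 22.0% of all tested genes and 38.8% of protein-coding genes at 50 CPM or more. The endoplasmic reticulum stress kinase EIF2AK3 (1.36) and the initiation factor EIF2A (0.42) rose, and the RNA-sensing kinase EIF2AK2 (-0.55) fell.

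In the other steps around charging, 4 of 19 tested genes of tRNA charging and delivery rose. That is 21.1%, beside 11.5% of all tested genes called higher and 22.0% called either way. Of protein-coding genes that averaged 5 CPM or more, 16.1% were called higher. In this list 0 were called lower by edgeR, DESeq2 or limma-voom. At an unadjusted p under 0.05, edgeR counted 3 lower, and the share of all tested genes at that threshold is not given. EEF1A1 (0.41), which brings charged tRNA to the ribosome, and its exchange factor subunit EEF1B2 (0.54) were among the genes that rose, with EEF1G and QRSL1. Of 13 mitochondrial translation factors, 3 rose and 2 fell. That is 38.5%, beside 22.0% of all tested genes and 30.2% of protein-coding genes that averaged 5 CPM or more. The initiation factor MTIF3 (0.85) and the recycling factor MRRF (0.58) rose, and the elongation factors GFM1 (-0.79) and TSFM (-0.55) fell. Of 43 tRNA processing and modification genes, 9 fell and 2 rose, with a median of -0.11. That is 25.6% called either way, beside 22.0% of all tested genes (10.5% lower and 11.5% higher). In this list POP1 (-1.20), a subunit of RNase P, and the pseudouridine synthase PUS7 (-0.65) fell. POP5 (0.78), also of RNase P, and the deaminase ADAT2 (0.53) rose. These lists were described by counts and medians, without a set test. The numbers of calls in these lists also moved when a library was left out.

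**Figure D5:**
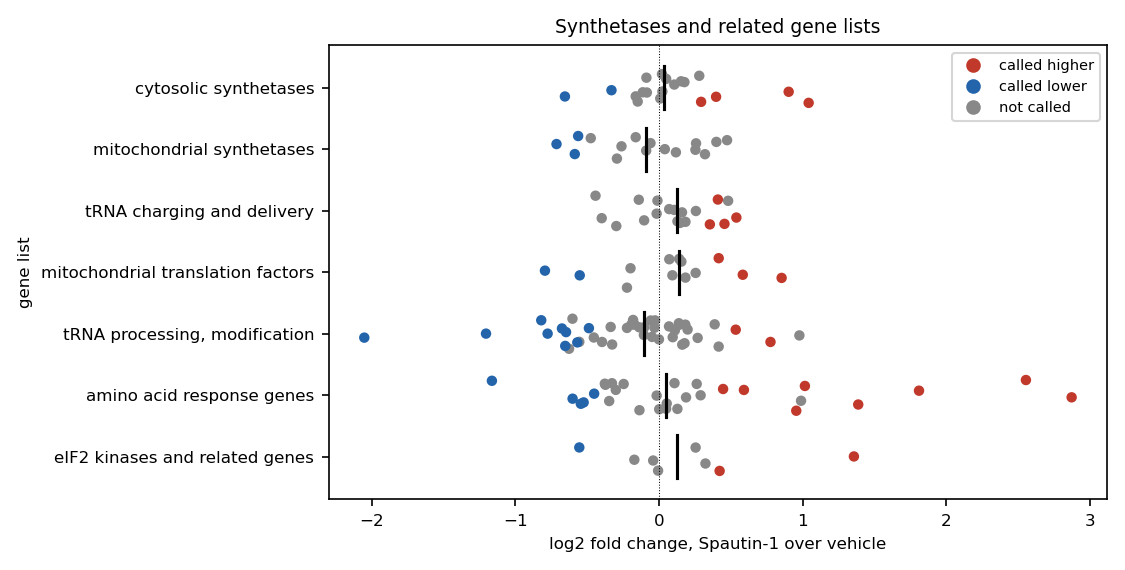
Log2 fold change, Spautin-1 over vehicle, of each tested gene (points, spread vertically at random) in 19 cytosolic and 16 mitochondrial synthetases and in 5 related lists, with a black line at the median, for the synthetases over all 20 and all 17. The synthetases lie between -0.71 and 1.04 with medians of 0.04 and -0.09, while the amino acid response genes reach 2.87.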

How the data were processed

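Per the submitters' processing notes, the authors used Trimmomatic 0.36, featureCounts from Subread 1.5.1, edgeR 3.12.1 and the GRCh38 build; for the aligner and the strand setting the sources used here give nothing. The deposited table holds whole-number read counts per gene for 4 libraries, with no column left unmapped. Of its values from 1 to 20, 75.2% were even.

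Counts were fitted as deposited with edgeR 4.0.16 in R 4.3.3 (filterByExpr with a minimum count of 10 and a minimum total of 15, TMM scaling, quasi-likelihood F test, two-sided, Benjamini-Hochberg over 18368 genes, threshold 0.05), with 2 residual degrees of freedom. The code was tested on simulated data. Alternatives used DESeq2 1.42.0, limma 3.58.1, other scalings and filters, GC and length offsets, a replicate block and each library left out.

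Counts, medians and sums cover all 39 members; 2 of them are not reported here singly. Every other member was named; per-library values were given for those called, GARS1 and KARS1. From each context list up to 2 called genes per direction with the smallest p were named, with DDIT3, ASNS and ATF4. Neighbouring genes, marker genes, uncalled members given per library and other called list genes were named after their values were seen. Members and lists were chosen with earlier results of these data known. TARS3 was not matched by the symbol rule. Exon overlaps and coordinates came from the table's own gene positions, GC content from GENCODE 29 transcripts (95.7% of tested genes), and promoters from RefSeq GRCh38.p14.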

Additional observations from a re-analysis of the deposited data

How the results depend on the processing

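With 2 libraries a group, leaving 1 out leaves a lone library that is assumed to vary like the other group, and this moved counts the most; the cause was not tested beyond the smaller number of libraries. Over the 4 such fits, all tested genes called ranged from 1067 to 2981 higher and 780 to 2785 lower, members from 2 to 7 and 2 to 8, cytosolic members from 2 to 5 and 1 to 3, mitochondrial members from 0 to 1 and 1 to 5, and scaffold members from 0 to 1 in each direction. Complex members ranged from 1 to 3 higher and 0 to 2 lower, those outside it from 1 to 3 and 1 to 2, and ATF4-listed synthetases from 0 to 2 lower. Other charging genes ranged from 2 to 6 higher and 0 to 2 lower, mitochondrial translation factors from 1 to 4 and 1 to 2, tRNA processing genes from 0 to 4 and 4 to 12, eIF2 kinases and related genes from 1 to 4 and 0 to 1, amino acid response genes from 1 to 9 lower and interferon-induced genes from 2 to 5 higher. Medians ranged from -0.010 to 0.11 (cytosolic) and -0.13 to -0.015 (mitochondrial). Log2 fold changes that crossed 0 were those of YARS1 (-0.20 to 0.037), SARS1 (-0.023 to 0.064), EPRS1 (-0.094 to 0.12), YARS2 (-0.14 to 0.017), WARS1 (-0.20 to 0.035), TARS1 (-0.013 to 0.059), LARS1 (-0.27 to 0.055), RARS1 (-0.0081 to 0.10), VARS2 (-0.0058 to 0.082), RARS2 (-0.048 to 0.26), IARS1 (-0.0074 to 0.23), ASNS (-0.050 to 0.16) and ATF4 (-0.063 to 0.066).

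Whether the labels' replicate numbers mark a pairing cannot be told here. Deviations of same-numbered libraries correlated at 0.124 over 9940 genes, but only 2 pairs stand behind this value. With the replicate block, 2615 genes were called higher and 2485 lower, and members 6 higher and 7 lower. The block gave mitochondrial members 1 higher, complex members 2 higher, other charging genes 1 lower, tRNA processing genes 4 higher (also with the GC offset) and amino acid response genes 8 lower. With the GC offset, alone or with the block, mitochondrial members had 1 higher and medians of -0.15 and -0.14, and other charging genes 3 lower; with both, eIF2 kinases and related genes had 2 lower.

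Scaling by library size gave 2 members higher, all cytosolic, and 1 outside the complex. Other charging genes had 1 lower with library-size scaling, the 1 CPM filter or the length offset. With DDIT3 reads taken off MARS1, chosen after seeing the data, complex members had 0 higher. The summed cytosolic log2 ratio was 0.00043 per kilobase of exon. Signs near 0 turned for SARS1 (-0.019 with library-size scaling, -0.0074 with the length offset), EPRS1 (-0.031 and -0.0062, and -0.0036 with the 1 CPM filter), TARS1 (-0.016 and -0.00075), VARS2 (-0.010, length offset) and ATF4 (-0.037 and -0.00072, -0.0017 with RLE scaling and DESeq2, -0.0024 with no filter, -0.011 with the 1 CPM filter). With the GC offset, alone and with the block, they turned for EPRS1 (-0.076 and -0.076), TARS1 (-0.054 and -0.054), RARS1 (-0.033 and -0.034) and ASNS (-0.022 and -0.021). Over the 37 members reported and all settings, 463 values kept direction and call, 17 lost the call, 11 gained it and 29 changed sign. Depth limited PARS2 most, with 28 to 56 reads.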
